A study of Mus musculus with 6 samples.

Results

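Complement is a set of plasma and tissue proteins that tags cells and debris for removal, recruits leukocytes and can build a pore in a target membrane. Its RNA was followed here through 7 genes, C7, C3, C4b, C1qa, C1qb, C1qc and Serping1, in nuclei of the mouse periosteum, the fibrous sheath of bone that supplies the repair cells after a fracture. The 7 genes were among 30406 genes listed for every library, and each was found by its symbol. They were chosen by their measured values: the stromal nuclei at day 3 against the uninjured ones, above all the low C7 there, selected them. The stromal day 3 comparison of these 7 genes is therefore a description and carries no test, whereas the macrophage and endothelial nuclei did not enter the choice.

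The study sequenced RNA of single nuclei in 6 libraries from C57BL6 mice that carried no injury or an open, non-stabilized tibial fracture. There were 2 libraries of uninjured periosteum, 2 of periosteum with hematoma at day 3 after fracture, and 1 each at day 5 and day 7. The mice were adult males and females mixed together, and the labels name neither a transgene nor a treatment other than the fracture. Uninjured periosteum was scraped from the tibias of 4 mice and fracture periosteum from 4 to 9 mice, with the nuclei pooled, so that a library is a pool and not an animal. The hematoma was collected only after fracture, so injury and the added tissue cannot be told apart. After filtering, 6278 nuclei remained of 13551 barcodes, between 354 and 2103 in a library, with a median of 1144.5 to 3696 UMIs (unique molecular identifiers, 1 per captured RNA molecule) per nucleus, and 18 barcodes occurred in more than 1 library. The second libraries of uninjured and day 3 periosteum stood apart, with the deepest nuclei of their groups and a median of about 0.4% mitochondrial UMIs, against 0 in the other 4 libraries. A level is given as CPM (counts per 1000000), the UMIs of a gene scaled to that total over a population's nuclei in 1 library, with a 95% exact Poisson interval in brackets where one is printed. These intervals cover counting error only. Levels are compared within a gene, since no length correction was made.

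Clusters of nuclei were named from marker genes that excluded all complement genes, and each name means only that the cluster was most like that type. The 2583 stromal nuclei combined fibroblast-like, SSPC-like (skeletal stem/progenitor cell), IIFC-like (injury-induced fibrogenic cell), osteoblast-like and chondrocyte-like clusters. Their makeup moved with injury: fibroblast-like and SSPC-like nuclei were 48.5% and 23.2% of stroma in uninjured library 1, and 37.3% and 16.7% in library 2. At day 3 the fibroblast-like share was 38.1% and 30.8% and the SSPC-like share 6.20% and 2.37%, while IIFC-like nuclei reached 49.6% and 54.2%. Macrophage-like nuclei numbered 8 and 41 before injury, with 101 and 390 in the day 3 libraries and 334 and 78 on days 5 and 7. In summed nuclei, fewer cells of a type and less RNA per cell cannot be told apart.

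The classical pathway of complement starts when C1q, built from the products of C1qa, C1qb and C1qc, binds a surface and activates the proteases C1r and C1s, which cut C4 and C2. The resulting enzyme cuts C3, the protein on which all pathways meet, and C7 is a component of the membrane attack complex at the end of the cascade. Serping1 encodes C1 inhibitor, which blocks C1r and C1s. Hepatocytes supply most circulating complement, but macrophages are a known source of C1q, and fibroblasts make several of the other components.

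All 7 genes lie on the minus strand of the GRCm38 genome. C7 spans chr15:4988762-5063740, C3 chr17:57203970-57228136, C4b chr17:34728380-34743882 and Serping1 chr2:84765387-84775444. The 3 C1q genes sit side by side within 18675 bases of chromosome 4, with C1qb at chr4:136880129-136886187, C1qc at chr4:136889804-136893065 and C1qa at chr4:136895917-136898803. Exons cover 3.57% of the C7 gene, and intronic UMIs were counted. The RefSeq promoter windows of build GRCm38.p6, which run from 250 bases before to 50 bases after the start, were present for 4 of the 7 genes and not for C1qa, C4b or Serping1. They are shown because C7 and C3 were highest in stroma and the C1q genes in macrophages, and because the C1q genes had nearly the same pattern over populations. Capitals mark matches, on either strand, to 3 short motifs: TATAAA, the TATA box, TTGCNNAA, a form of the C/EBP site, and GAGGAA, the PU.1 core. No match overlapped another in these windows.
C7, chr15:5063724-5064023: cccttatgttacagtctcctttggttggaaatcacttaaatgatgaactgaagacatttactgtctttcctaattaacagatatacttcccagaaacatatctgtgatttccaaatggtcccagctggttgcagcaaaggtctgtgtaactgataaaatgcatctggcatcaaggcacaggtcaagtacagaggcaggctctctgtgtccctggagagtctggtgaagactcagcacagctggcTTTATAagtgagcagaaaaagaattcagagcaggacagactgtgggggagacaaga
C3, chr17:57228087-57228386: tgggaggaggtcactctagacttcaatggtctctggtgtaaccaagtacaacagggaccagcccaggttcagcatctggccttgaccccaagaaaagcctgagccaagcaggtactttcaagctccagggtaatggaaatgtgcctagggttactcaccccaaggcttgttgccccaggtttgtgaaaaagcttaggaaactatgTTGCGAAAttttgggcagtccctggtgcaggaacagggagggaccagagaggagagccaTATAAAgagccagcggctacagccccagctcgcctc
C1qb, chr4:136886151-136886450: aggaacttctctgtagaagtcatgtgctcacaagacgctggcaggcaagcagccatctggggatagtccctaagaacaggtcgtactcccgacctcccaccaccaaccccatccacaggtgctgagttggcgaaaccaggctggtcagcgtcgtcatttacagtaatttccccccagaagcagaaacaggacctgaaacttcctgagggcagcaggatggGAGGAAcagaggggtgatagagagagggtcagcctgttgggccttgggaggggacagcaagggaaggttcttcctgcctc
C1qc, chr4:136892865-136893164: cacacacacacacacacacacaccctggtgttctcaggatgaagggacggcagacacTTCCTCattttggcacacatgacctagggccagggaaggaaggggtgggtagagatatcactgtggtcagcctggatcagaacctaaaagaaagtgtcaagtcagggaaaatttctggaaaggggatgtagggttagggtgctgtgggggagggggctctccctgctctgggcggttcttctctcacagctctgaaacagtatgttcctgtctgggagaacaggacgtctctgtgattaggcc
The C7 window holds 1 match to TATAAA on the strand opposite to the gene, read here as TTTATA. The C3 window holds both TATAAA and a C/EBP match, TTGCGAAA, and the C1qb and C1qc windows each hold 1 match to GAGGAA, that of C1qc on the opposite strand as TTCCTC. Among 32851 promoter windows of the same length, 13.6% held TATAAA, 10.8% held TTGCNNAA and 28.3% held GAGGAA. These matches describe letters only and are not shown binding sites.

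C7 was a gene of uninjured fibroblast-like and SSPC-like nuclei that was close to absent after fracture. In stromal nuclei, C7 gave 73 UMIs or 529 CPM (415 to 666) in uninjured library 1 and 3194 UMIs or 2448 CPM (2364 to 2535) in uninjured library 2. At day 3 it gave 0 UMIs in library 1, where 3 UMIs would be 7.87 CPM, and 2 UMIs or 1.13 CPM (0.136 to 4.07) in library 2. At day 5 it gave 18 UMIs or 3.30 CPM (1.96 to 5.22), and at day 7 it gave 0 UMIs, where 3 UMIs would be 1.96 CPM. The uninjured and fracture libraries did not overlap, and the 2 uninjured libraries themselves differed several-fold. These are the values on which the genes were selected.

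Summed over libraries, stromal C7 was 2443.5 times higher in uninjured than in day 3 nuclei, with a counting interval of 675.9 to 20185 that rests on 2 UMIs at day 3. The deep pair alone, library 2 of each group, gave 2174.5 (601.5 to 17963). The shallow pair gave a level at least 67.3-fold lower at day 3, taking 3 UMIs as the limit for a count of 0. Against the single later libraries, C7 was 685.8 (433 to 1159) times higher in uninjured stroma than at day 5 and was at least 1157-fold lower at day 7. Most of the uninjured UMIs in these ratios came from library 2, and uninjured library 1 alone gave 160.3 (94.7 to 285) times the day 5 level and a day 7 level at least 270.5-fold lower. With 1 library each, days 5 and 7 allow no test.

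Fibroblast-like nuclei held most C7. Their level was 1029 CPM (805 to 1296) from 48 nuclei and 3685 CPM (3536 to 3839) from 123 nuclei in the uninjured libraries. At day 3 both libraries gave 0 UMIs, from 43 and 78 nuclei, against 2370 UMIs in the uninjured ones, at least 777-fold lower over the group. Library 2 held 2298 of those uninjured UMIs, and within the deep pair the bound was 667-fold and within the shallow pair 47.6-fold. Day 5 gave 3 UMIs or 2.97 CPM and day 7 gave 0. The fibroblast-like share of stroma was 48.5% and 37.3% in the uninjured libraries and 38.1% and 30.8% at day 3. Its part in the stromal C7 level was not tested. These nuclei form a single cluster over all libraries, and whether the same cells filled it before and after fracture was not tested.

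SSPC-like nuclei carried C7 mainly in one library. They gave 839 UMIs or 2561 CPM (2391 to 2740) from 55 nuclei of uninjured library 2, but 1 UMI or 25.6 CPM from 23 nuclei of uninjured library 1. No C7 UMI was found in the 7 and 6 SSPC-like nuclei of day 3 or the 39 of day 7, and 1 was found in the 33 of day 5. Of all C7 UMIs, fibroblast-like nuclei held 92.3% in uninjured library 1, and fibroblast-like and SSPC-like nuclei held 69.0% and 25.2% in library 2. IIFC-like nuclei, the class that filled the stroma after fracture, gave 0 UMIs in uninjured library 1, 49 UMIs or 303 CPM in library 2, 0 and 2 UMIs at day 3, 14 UMIs or 5.24 CPM at day 5 and 0 at day 7. With all libraries pooled, SSPC-like nuclei stood first at 1330 CPM and fibroblast-like nuclei second at 896 CPM, but within each uninjured library the fibroblast-like level was the higher of the pair. Tendon-like nuclei, outside the stromal sum, gave 87 UMIs or 420 CPM in uninjured library 2. Only 2 of these 50 nuclei held any, and 1 of them held 86 of the UMIs. Uninjured library 1 gave 0 from 4 tendon-like nuclei, where 3 UMIs would be 531 CPM.

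Little C7 was found in endothelial-like and macrophage-like nuclei. Endothelial-like nuclei gave 0 UMIs in uninjured library 1 and 30 UMIs or 28.4 CPM in library 2, and 0 in the other 4 libraries. Macrophage-like nuclei gave 4 UMIs or 21.0 CPM in uninjured library 2. With each nucleus thinned to 500 UMIs, C7 was seen in 27.1% of fibroblast-like nuclei of uninjured library 1 (13 of 48, exact binomial 95% interval 15.3 to 41.9%) and 40.7% of those of library 2 (50 of 123, 31.9 to 49.9%), or 31.3% and 56.1% without thinning. Among endothelial-like nuclei the thinned share was 0 of 179 and 2 of 230, or 0.870%. In fibroblast-like nuclei at day 3 it was 0 of 43, which allows a share of up to 6.98%, and 0 of 78, which allows up to 3.85%, taking 3 nuclei as the limit for a count of 0.

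C7 was also unevenly spread among the nuclei that had it. In stroma of uninjured library 2, 125 of 330 nuclei held a C7 UMI, 1 nucleus held 265, and the 33 nuclei with the most C7 held 81.9% of its UMIs. The C7-positive nuclei were deeper, with a median of 4538 UMIs against 1563 in the others. C3 was found in 44 of these 125 nuclei, or 35.2%, and in 22 of the other 205, or 10.7%, so depth moved with both genes in this library and its part in the overlap was not tested. Uninjured library 1 showed the other order, with C3 in 0 of 16 C7-positive stromal nuclei and 10 of the other 83, or 12.0%, and there the C7-positive nuclei were the shallower ones, with a median of 805 against 989 UMIs. At day 5, 10 of the 18 stromal C7 UMIs came from a single nucleus.

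**Figure D1:**
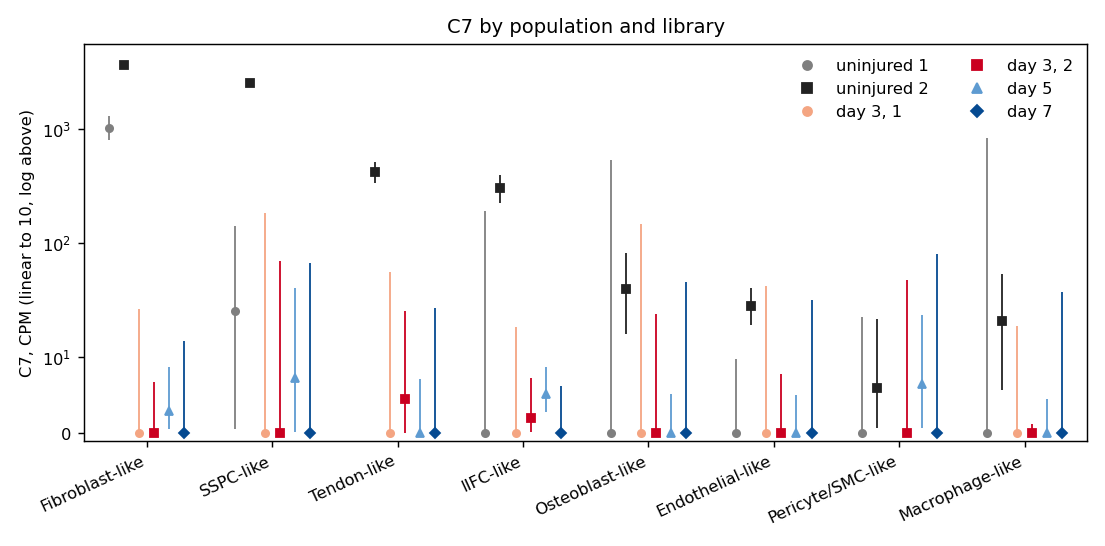
C7 level in each population and library, in CPM on an axis that is linear up to 10 and logarithmic above, with bars for the 95% exact Poisson interval; populations with under 5 nuclei in a library are not drawn. The uninjured fibroblast-like nuclei sit at 1029 and 3685 CPM, and those of the fracture libraries sit at 0 to 2.97 CPM.

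The other genes of the membrane attack complex were close to absent in every population. C6, C8a, C8b, C8g, C9 and Hc, which encodes C5, together gave 62 UMIs in all 6278 nuclei, while C7 gave 3433. C6, the neighbour of C7 at a distance of 173.8 kb, gave 26 UMIs and C9 gave 17. None of these 6 genes had enough UMIs to be tested.

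3 genes came closest to the C7 pattern over 60 profiles of a population in a library with at least 20 nuclei, by Pearson correlation of log2(CPM + 10). They were Plcxd3 with r = 0.919, Myoc with r = 0.895 and Cdh9 with r = 0.840. Profiles from the same library share its depth, so these correlations are descriptions. In stroma, Plcxd3 gave 123 and 411 CPM in the uninjured libraries, 0 and 1.13 CPM at day 3, then 2.02 CPM on day 5 and 1.96 CPM on day 7. Myoc, which encodes the secreted protein myocilin, gave 174 and 649 CPM uninjured, 0 and 13.5 CPM at day 3, then 3.67 CPM on day 5 and 0.653 CPM on day 7. Cdh9, a cadherin gene, gave 29.0 and 57.5 CPM uninjured, 0 in both day 3 libraries, then 0.734 CPM on day 5 and 0 on day 7. For all 3 genes, as for C7, both uninjured libraries lay above every fracture library. The genes were picked for their likeness to C7 over these same libraries, so the shared order follows from the choice and is no separate support.

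C3, the central component, was highest in SSPC-like nuclei in both uninjured libraries, and it stayed detectable after fracture. In stroma, C3 gave 12 UMIs or 87.0 CPM (45.0 to 152) and 201 UMIs or 154 CPM (134 to 177) in the uninjured libraries. At day 3 it gave 9 UMIs or 23.6 CPM (10.8 to 44.8) and 50 UMIs or 28.2 CPM (20.9 to 37.1). Days 5 and 7 gave 7.71 CPM (5.55 to 10.4) and 8.48 CPM (4.52 to 14.5). The uninjured libraries lay above all 4 fracture libraries, and the summed uninjured level was 5.40 times (4.03 to 7.33) that of day 3. Within fibroblast-like nuclei the gap was smaller, with 85.8 and 112 CPM uninjured, 50.4 and 66.3 CPM at day 3 and 26.7 and 26.6 CPM at days 5 and 7. The ratio of uninjured to day 3 was 1.74 (1.18 to 2.59). SSPC-like nuclei gave 154 CPM (56.4 to 334) and 360 CPM (298 to 431) uninjured, no C3 UMI among the 7 and 6 nuclei of day 3, then 50.7 CPM on day 5 and 55.2 CPM on day 7. The smaller SSPC-like share of stroma at day 3 moved with the stromal C3 level, and its part was not tested.

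Macrophage-like nuclei held little C3, with 0 UMIs in uninjured library 1, 1 UMI or 5.26 CPM in library 2, 10.2 and 13.9 CPM at day 3, then 8.70 CPM on day 5 and 0 UMIs on day 7. Uninjured library 1 has so few macrophage-like UMIs that 3 of them would be 681 CPM, so a level of this size was not detectable there. The genes closest to C3 over the 60 profiles were Gm12796 (r = 0.791), Duox1 (r = 0.775) and Dpt (r = 0.743), the last encoding the matrix protein dermatopontin.

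C4b, the mouse C4 gene, was highest in adipocyte-like nuclei, at 379 CPM (313 to 454) over all libraries, followed by Schwann-like nuclei at 129 CPM (86.2 to 185) and SSPC-like nuclei at 120 CPM (94.7 to 150), which did not differ beyond counting error. Adipocyte-like nuclei gave 298 CPM (137 to 567) from 10 nuclei and 372 CPM (297 to 460) from 23 nuclei in the uninjured libraries. They gave 538 CPM (286 to 920) from 6 nuclei at day 5 and were too few, with 1 to 3 nuclei, in the other fracture libraries. C4b shares most of its sequence with C4a, which was listed for 3 of the 6 libraries only. Reads of the pair may thus be split or lost differently between libraries, and C4b levels are uncertain. All 3 were fracture libraries, namely day 3 library 1, day 5 and day 7, so the gene list moved with injury. Its part in the C4b levels and fold changes of any population was not tested.

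In stroma, C4b gave 65.3 CPM (29.9 to 124) and 116 CPM (98.0 to 136) in the uninjured libraries. It gave 5.24 CPM (0.635 to 18.9) and 27.0 CPM (19.9 to 35.8) at day 3, then 8.99 CPM (6.65 to 11.9) on day 5 and 13.7 CPM (8.48 to 20.9) on day 7. The uninjured libraries again lay above all fracture libraries. The library 2 pair, which shares 1 gene list without C4a, gave an uninjured level 4.28 times (3.08 to 6.06) that of day 3. In fibroblast-like nuclei C4b was 100 and 119 CPM uninjured, 14.4 and 47.9 CPM at day 3, then 21.8 CPM on day 5 and 26.6 CPM on day 7. The closest genes were Tmem178b (r = 0.715), Zmynd12 (r = 0.685) and Podn (r = 0.677).

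Serping1, which encodes the C1 inhibitor, was present in stroma at all times and had the smallest gap between uninjured and day 3 nuclei among the 4 genes of stroma. Stromal Serping1 was 174 CPM (112 to 259) and 305 CPM (276 to 337) in the uninjured libraries and 86.5 CPM (59.6 to 122) and 207 CPM (187 to 230) at day 3. It was 69.9 CPM (63.1 to 77.3) at day 5 and 60.7 CPM (49.0 to 74.3) at day 7. The 2 uninjured and 2 day 3 libraries overlapped, since the second day 3 library lay above the first uninjured one. Within fibroblast-like nuclei the levels were 157 and 338 CPM uninjured and 130 and 365 CPM at day 3, a ratio of 1.01 (0.834 to 1.22), and days 5 and 7 gave 184 and 163 CPM. IIFC-like nuclei were the largest part of the stroma in each fracture library. They gave 363 and 161 CPM uninjured, 50.5 and 153 CPM at day 3, then 45.7 CPM on day 5 and 50.9 CPM on day 7.

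Over all libraries, Serping1 was highest in Luzp2/Cldn1 fibroblast-like nuclei, at 424 CPM (360 to 497) from 98 nuclei, then in SSPC-like nuclei, at 316 CPM (274 to 363), and in fibroblast-like nuclei, at 252 CPM (233 to 272). In uninjured library 1, IIFC-like nuclei stood above all of these, at 363 CPM from 20 nuclei. The interval of SSPC-like nuclei touched that of the population above and not that of the one below, and both uninjured libraries kept Luzp2/Cldn1 fibroblast-like nuclei above SSPC-like ones. Macrophage-like nuclei were near 0, between 0 and 10.1 CPM in the 6 libraries. Endothelial-like nuclei, which the choice of genes did not use, gave 42.7 and 47.3 CPM uninjured, 45.4 and 10.6 CPM at day 3, then 10.9 CPM on day 5 and 25.8 CPM on day 7. The groups overlapped, and the log2 fold change at day 3 of -1.39 (SE 0.74, 2 libraries against 2) did not pass edgeR's quasi-likelihood test, with a Benjamini-Hochberg adjusted p of 0.386. Without day 3 library 2 the fold change was 0.02. Of 6573 genes tested in endothelial-like nuclei, 4.09% passed. The genes closest to Serping1 were Klhl29 (r = 0.797), C1s1 (r = 0.794), whose protease product is the target of C1 inhibitor, and Ror1 (r = 0.793).

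**Figure D2:**
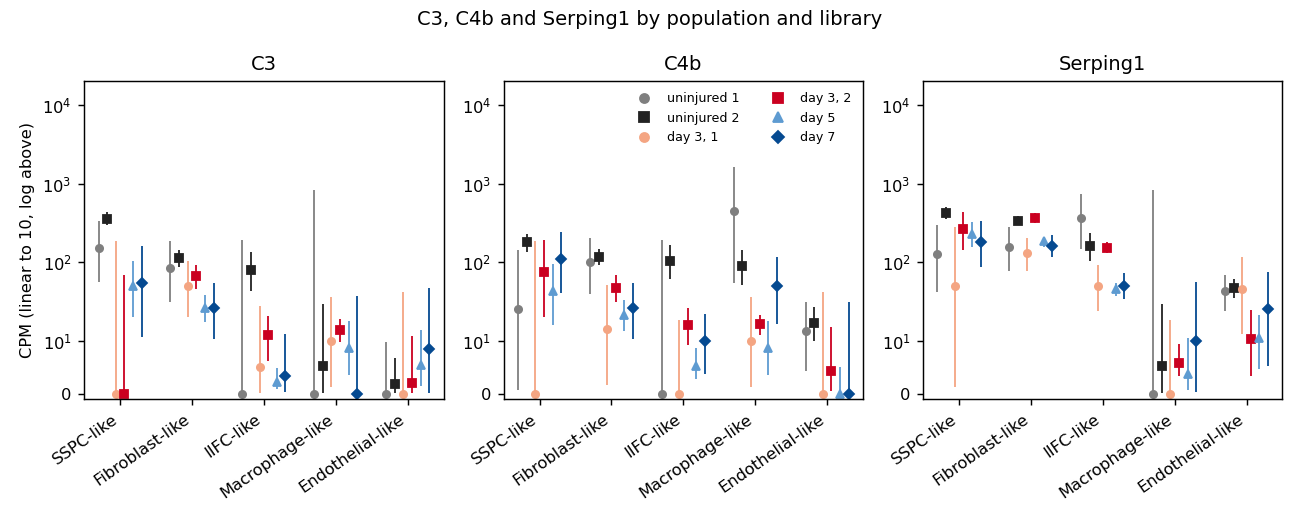
Levels of C3, C4b and Serping1 by population and library, in CPM on an axis that is linear up to 10 and logarithmic above, with bars for the 95% exact Poisson interval; populations with under 5 nuclei in a library are not drawn. In fibroblast-like nuclei C3 sits at 85.8 and 112 CPM uninjured and from 26.6 to 66.3 CPM after fracture, whereas Serping1 runs from 130 to 365 CPM with the groups overlapping.

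For the stromal nuclei as a whole, an edgeR quasi-likelihood test across 9399 genes called 864, or 9.19%, at an adjusted p under 0.05, of which 501 were lower and 363 higher at day 3. Of the 7 genes, 6 had enough UMIs to be tested and C1qc did not. The fitted log2 fold changes were -10.66 (SE 1.00) for C7, -2.37 (SE 0.46) for C3, -2.47 (SE 0.58) for C4b and -0.84 (SE 0.41) for Serping1. Over the 14 alternatives to this fit, leaving out each library among them, the fold changes ran from -12.81 to -9.05 for C7, -3.25 to -1.76 for C3, -3.97 to -1.88 for C4b and -1.95 to -0.26 for Serping1. These nuclei and this contrast chose the genes, so no call is given for them, and the value for C7 depends on how the fit treats the 2 UMIs at day 3.

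The C1q genes were highest in macrophage-like nuclei. Among populations with at least 10 nuclei, these nuclei stood first for C1qa and C1qb in each of the 5 libraries that held enough of them, and for C1qc in 3 of the 5. C1qa gave 0 UMIs in the 8 nuclei of uninjured library 1 and 51 UMIs or 268 CPM (200 to 353) in the 41 nuclei of library 2. It gave 7 UMIs or 35.6 CPM (14.3 to 73.3) and 842 UMIs or 293 CPM (273 to 313) at day 3, then 127 CPM (103 to 154) on day 5 and 50.4 CPM (16.4 to 118) on day 7. The level was highest in the second library of both groups, and the 2 day 3 libraries lay further apart than those 2. The same pair carried the higher mitochondrial share of about 0.4%, whose part was not tested.

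C1qb and C1qc were likewise highest in the second libraries. C1qb gave 0 UMIs and 279 CPM (209 to 365) uninjured, 142 CPM (94.5 to 206) and 324 CPM (304 to 345) at day 3, then 142 CPM (117 to 170) on day 5 and 60.5 CPM (22.2 to 132) on day 7. C1qc gave 0 UMIs and 289 CPM (218 to 377) uninjured, 25.4 CPM (8.25 to 59.3) and 191 CPM (175 to 208) at day 3, then 78.3 CPM (60.2 to 100) on day 5 and 10.1 CPM (0.255 to 56.1) on day 7. For C1qc, uninjured library 2 rather than day 3 library 2 was the highest. The 0 of uninjured library 1 says little, since 3 UMIs would be 681 CPM there. Between the 2 deep libraries, day 3 stood at 1.09 times (0.822 to 1.48) the uninjured level for C1qa, 1.16 times (0.881 to 1.56) for C1qb and 0.660 times (0.499 to 0.887) for C1qc. These intervals cover counting error only, for 1 library against 1.

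The planned test over 2 uninjured and 2 day 3 libraries could say little about macrophage C1q. Uninjured library 1 entered it with 8 nuclei and 4407 UMIs, so that the uninjured side rested on library 2 and the test had in effect 1 uninjured library. The log2 fold changes at day 3 were -0.33 (SE 0.71) for C1qa, 0.09 (SE 0.73) for C1qb and -0.99 (SE 0.68) for C1qc, each with an adjusted p of 0.999 in edgeR's quasi-likelihood test, which does not show that the levels were alike. The direction of each turned when some library was left out. Of the 7 genes, C1qa, C1qb, C1qc and C4b had enough macrophage UMIs to be tested, and 0 of these 4 passed, against 19 of 3857 genes, or 0.493%, in the whole comparison. C4b was the 1 gene of the 4 with an unadjusted p under 0.05, where 4.85% of all genes had one. It gave 2 UMIs or 454 CPM (55.0 to 1639) and 17 UMIs or 89.4 CPM (52.1 to 143) uninjured, 10.2 CPM (1.23 to 36.7) and 16.3 CPM (12.0 to 21.7) at day 3, then 8.70 CPM on day 5 and 50.4 CPM (16.4 to 118) on day 7. Both uninjured libraries lay above both day 3 libraries, but the value of uninjured library 1 rests on 2 UMIs, where 3 UMIs would be 681 CPM. The log2 fold change was -2.89 (SE 0.98, adjusted p 0.224 in edgeR's quasi-likelihood test). C4b passed the filter on low counts only through the uninjured libraries, where it was high. Its order and unadjusted p are therefore no separate support. With DESeq2, 7 genes of 3857, or 0.181%, passed and none was a complement gene. In simulated data of this comparison, 66.2% of 8-fold changes and 18.4% of 4-fold changes were recovered, so smaller changes in macrophages would mostly be missed. These shares cover only the 77 and 76 changed genes left after the filter on low counts. The same spread was simulated for every gene, so the shares may be too high.

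The macrophage-like nuclei fell into a cluster led by Hpgds and one led by Arg1, an arginase gene. C1qa was higher in the Hpgds-led cluster in each of the 5 libraries that held both. In day 3 library 2 it stood at 350 (324 to 378) against 182 CPM (156 to 210), and at day 5 at 161 (127 to 202) against 78.1 CPM (51.0 to 114.5). In the other libraries the counting intervals overlapped. Uninjured library 2 gave 302 (215 to 413) against 197 CPM (101.5 to 343), the latter from 11 nuclei. Day 3 library 1 gave 61.7 (22.65 to 134) against 10.0 CPM (0.254 to 55.9). Day 7 gave 98.2 CPM (31.9 to 229) against 0 UMIs, where 3 UMIs would be 62.1 CPM. With complement genes left out of the clustering, other macrophage genes still define these clusters, so no test was made. C4b showed the same order, with 132 CPM in the Hpgds-led and 0 UMIs in the Arg1-led nuclei of uninjured library 2. In single nuclei thinned to 500 UMIs, C1qa was seen in 9.76% (4 of 41) of macrophage-like nuclei in uninjured library 2, 3.96% (4 of 101) and 11.0% (43 of 390) at day 3, 5.69% (19 of 334) at day 5 and 2.60% (2 of 77) at day 7.

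C1q was also read outside macrophages. Stromal C1qa gave 0 and 0.767 CPM in the uninjured libraries, 18.4 CPM (7.38 to 37.8) and 42.2 CPM (33.2 to 52.9) at day 3, then 7.52 CPM on day 5 and 0 on day 7. In stroma of uninjured library 1, 3 UMIs would be 21.8 CPM, so its 0 cannot be told from the 18.4 CPM of day 3 library 1. C1qb and C1qc gave at most 3.83 CPM in uninjured stroma and 31.5 and 23.7 CPM in day 3 library 2. The macrophage markers moved the same way: Adgre1, Csf1r, Mrc1, Mertk, Cd68, F13a1 and Cd163 together gave 50.8 and 114 CPM in uninjured stroma, with 5 of 7 and 1 of 7 at 0, and 393 and 376 CPM at day 3, with 0 of 7 at 0. In uninjured library 1 the markers at 0 were Adgre1, Csf1r, Mrc1, Cd68 and Cd163, and in library 2 only Adgre1 was at 0. Macrophage-like nuclei gave 3396 to 10197 CPM of the same list. At days 5 and 7 the list stood at 331 and 400 CPM in stroma while C1qa stood at 7.52 and 0 CPM. The part of macrophage RNA in the stromal C1q values was not tested.

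In day 3 library 2, the 3 C1q genes together gave 807 CPM in macrophage-like nuclei, 505 CPM (369 to 676) in 17 osteoclast-like nuclei, 315 CPM in neutrophil-like, 181 CPM in monocyte/antigen-presenting-like, 97.4 CPM in stromal and 52.9 CPM in endothelial-like nuclei. The stromal level was thus 12.1% and the endothelial level 6.55% of that in macrophage-like nuclei. Neutrophil-like nuclei came nearer to macrophage-like ones in 2 other libraries. They gave 189 CPM (61.3 to 441) against 203 CPM (145 to 277) in day 3 library 1, from 5 UMIs in 13 nuclei, and 299 CPM (205 to 423) against 347 CPM (307 to 390) at day 5, so that in both the intervals overlapped. In day 3 library 2, the genes C1qa, C1qb and C1qc made up 36.3%, 40.1% and 23.6% of C1q UMIs in macrophage-like nuclei, 43.4%, 32.4% and 24.3% in stroma and 40.5%, 38.9% and 20.6% in neutrophil-like nuclei. Within stroma, osteoblast-like nuclei gave 392 CPM, and a single nucleus with 21 of their 28 C1qa UMIs made up most of that C1qa. Thinned to 500 UMIs, C1qa was seen in 5 of 253 stromal nuclei. Macrophage-like nuclei nevertheless held 77.6% of C1qa, 80.0% of C1qb and 81.7% of C1qc UMIs of this library.

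**Figure D3:**
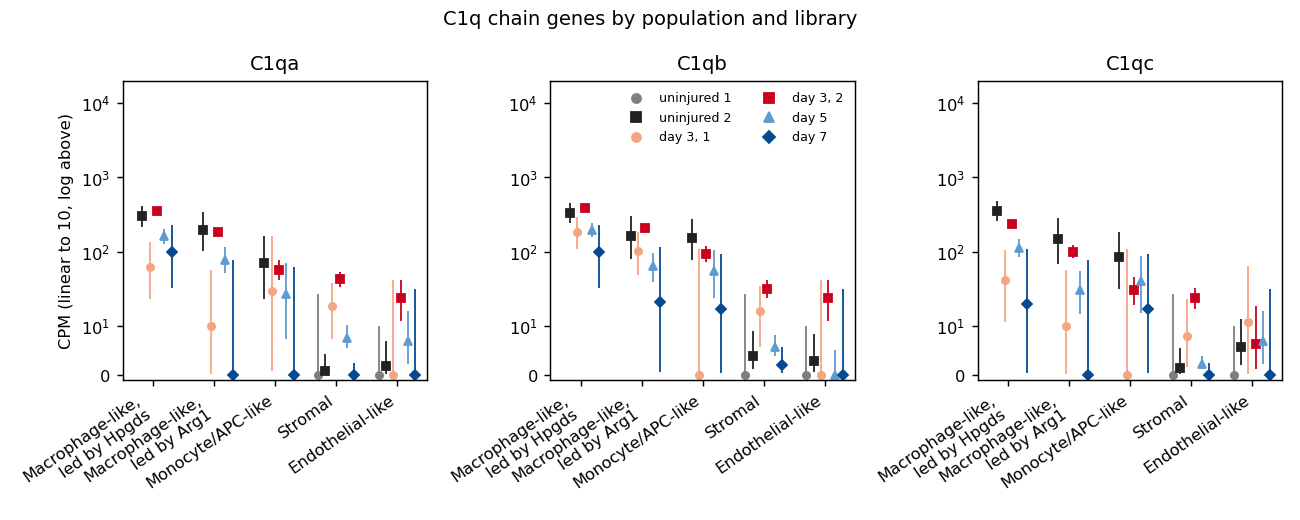
Levels of C1qa, C1qb and C1qc by population and library, with the macrophage-like nuclei split into their 2 clusters, in CPM on an axis that is linear up to 10 and logarithmic above, with bars for the 95% exact Poisson interval; populations with under 10 nuclei in a library are not drawn, which leaves out the macrophage-like nuclei of uninjured library 1. In Hpgds-led nuclei C1qa stands at 302 CPM in uninjured library 2 and 350 CPM in day 3 library 2, and at 61.7 CPM in day 3 library 1.

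The C1q genes were the most alike in their pattern, with r = 0.901 between C1qa and C1qb, 0.895 between C1qa and C1qc and 0.900 between C1qb and C1qc over the 60 profiles. Between the stromal genes r was 0.649 for C7 and C3, 0.641 for C3 and C4b and 0.542 for C7 and C4b. The genes outside the list closest to C1qa were Mpeg1 (r = 0.902), Slc11a1 (r = 0.901) and Ms4a6c (r = 0.900). C1qb came closest to Slc11a1 (r = 0.909), Ms4a6c (r = 0.893) and Aoah (r = 0.889), and C1qc to Pf4 (r = 0.880), Ms4a6c (r = 0.863) and Ccl9 (r = 0.861). Mpeg1 encodes the macrophage pore protein perforin-2, and Slc11a1 a metal transporter of phagosomes.

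The wider pathway was read through 48 other complement genes, of which 47 were listed for every library. In stroma 13 of them were tested in the same nuclei and libraries. At day 3, 5 fell and 1 rose, where 5.33% of all genes fell and 3.86% rose. The 1 that rose, Itgam, passed the filter on low counts only through the day 3 libraries, where it was high. The median log2 fold change of the 13 was -1.26, against 0.02 over all genes. DESeq2 called 2 of the 13 lower, Cd55 and Csmd1, where it called 3.81% of all genes lower, and 1 higher, Itgam, where it called 2.4% higher.

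Among the proteases of the classical pathway, C1s1 and C1ra fell in stroma as a whole. C1s1, the gene of C1s, gave 167 and 165 CPM in uninjured stroma, 26.2 and 73.8 CPM at day 3, then 27.5 CPM on day 5 and 26.8 CPM on day 7. Both uninjured libraries were above every fracture library (log2 fold change -1.75, SE 0.43, adjusted p 0.0243 in edgeR's quasi-likelihood test). C1ra, the gene of C1r, gave 50.8 and 66.7 CPM uninjured, 5.24 and 20.8 CPM at day 3, then 6.97 CPM on day 5 and 7.18 CPM on day 7 (log2 fold change -2.13, SE 0.60, adjusted p 0.0466 in edgeR's quasi-likelihood test). C2, the third gene of this group tested, was at -1.26 (SE 0.65) and did not pass. In SSPC-like nuclei alone, C1s1 gave 102 and 168 CPM uninjured, 101 CPM on day 5 and 147 CPM on day 7. C1ra there gave 76.8 and 82.4 CPM uninjured, 7.24 CPM on day 5 and 18.4 CPM on day 7. The SSPC-like share of stroma was smaller after fracture, and its part in the stromal C1s1 and C1ra levels was not tested. Neither gene passed without uninjured library 2 (adjusted p 0.137 and 0.38 in edgeR's quasi-likelihood test) or without day 3 library 1 (0.146 and 0.152), and DESeq2 called neither.

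Of the regulators that protect host surfaces, Cd55 and Csmd1 fell. The paper names a fibroblast cluster of uninjured periosteum by Csmd1, and the part of such cells in the stromal Csmd1 level was not tested. Cd55, which encodes decay-accelerating factor, gave 254 and 192 CPM in uninjured stroma, 7.87 and 25.3 CPM at day 3, then 18.5 CPM on day 5 and 26.1 CPM on day 7. The uninjured libraries were far above all others (log2 fold change -3.63, SE 0.46, adjusted p 0.000941 in edgeR's quasi-likelihood test). In SSPC-like nuclei, where it was highest, Cd55 gave 461 and 556 CPM uninjured, 340 CPM on day 5 and 184 CPM on day 7. The smaller SSPC-like share of stroma after fracture moved with the stromal Cd55 level, and its part was not tested. Csmd1, a large membrane protein with complement control domains, gave 1632 and 3437 CPM uninjured, 131 and 223 CPM at day 3, then 508 CPM on day 5 and 181 CPM on day 7 (log2 fold change -3.93, SE 0.50, adjusted p 0.000881 in edgeR's quasi-likelihood test). Cd46 was at -1.46 (SE 0.46) with an adjusted p of 0.0755 in edgeR's quasi-likelihood test, so it did not pass, and neither did Cr1l and Clu. Cd55 and Csmd1 passed with each library left out.

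Itgam was the 1 gene of the list that was called higher. It passed the filter on low counts only through the day 3 libraries, so it could be called higher but not lower. The call is therefore no separate support. It encodes the alpha chain of complement receptor 3 on myeloid cells, and it gave 0 and 0.767 CPM in uninjured stroma, 34.1 and 20.8 CPM at day 3, then 3.12 CPM on day 5 and 2.61 CPM on day 7 (log2 fold change 4.95, SE 1.11, adjusted p 0.0169 in edgeR's quasi-likelihood test). The 0 of uninjured library 1, where 3 UMIs would be 21.8 CPM, cannot be told from the 20.8 CPM of day 3 library 2. The macrophage marker list also rose in stroma, from 50.8 and 114 CPM uninjured to 393 and 376 CPM at day 3. It stayed at 331 and 400 CPM on days 5 and 7, when Itgam was low again. The neutrophil list (Csf3r, S100a8, S100a9, Cxcr2 and Retnlg) stood at 14.5 and 5.37 CPM uninjured, with 3 of 5 and 2 of 5 at 0, and at 15.7 and 147 CPM at day 3, with 2 of 5 and 0 of 5 at 0. On days 5 and 7 the neutrophil list stood at 8.07 and 3.26 CPM. The part of either cell type in the Itgam value was not tested. Itgam did not pass without uninjured library 2 (adjusted p 0.266 in edgeR's quasi-likelihood test) or without day 3 library 1 (0.0519). Colec12, a scavenger receptor of the collectin family, was abundant and did not pass, with 225 and 461 CPM uninjured, 170 and 584 CPM at day 3, then 666 CPM on day 5 and 696 CPM on day 7. Cfp, Masp1, C2, Cr1l and Clu did not pass either.

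**Figure D4:**
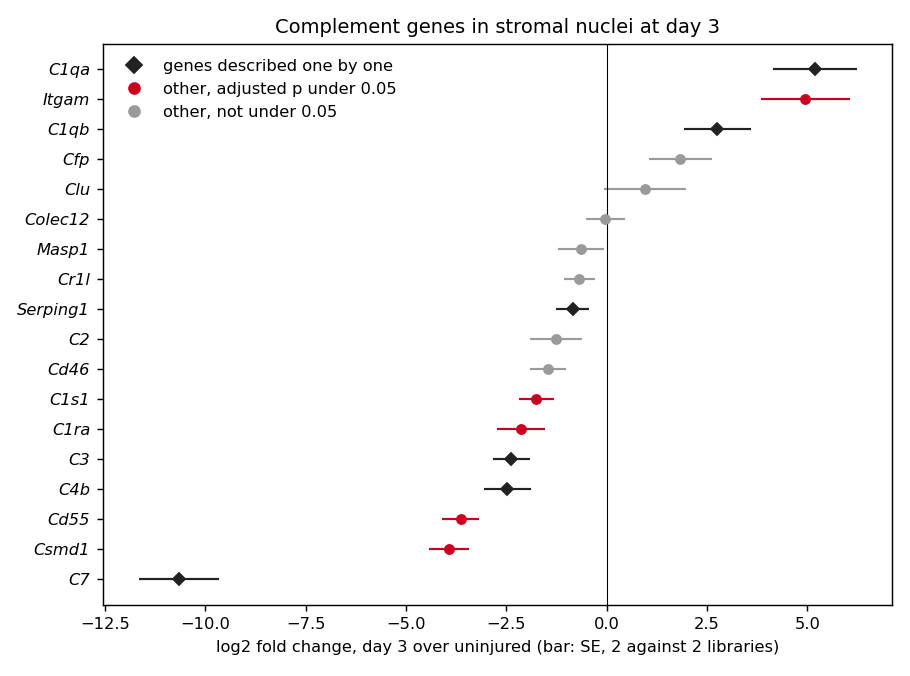
Log2 fold change of complement genes in stromal nuclei, day 3 minus uninjured, 2 libraries against 2, with bars for the standard error. Cd55 and Csmd1 lie at -3.63 and -3.93 and Itgam at 4.95, and the genes described one by one in the text, which this contrast selected, are marked apart.

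In macrophage-like nuclei 9 of the other complement genes were tested, among them C3ar1, C5ar1, Cd93, Cfp, Colec12, Cr1l, Itgam and Itgb2. None passed edgeR's test, in which uninjured library 1 again counted 8 nuclei, none had an unadjusted p under 0.05, and DESeq2 called none. Their median log2 fold change was -0.09, against 0.16 over all genes. Vsig4, the complement receptor of resident macrophages, had too few UMIs for a test. It gave 0 and 121 CPM in uninjured macrophage-like nuclei, 0 and 10.1 CPM at day 3, then 4.97 CPM on day 5 and 0 on day 7, and it was picked after its values were seen.

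In endothelial-like nuclei 10 of the list were tested and 0 passed edgeR's test, although 7 had an unadjusted p under 0.05, where 17.9% of all genes did. DESeq2 called none of the 10 and 3.3% of all genes. The median of the 10 was -1.33, against -0.01 over all genes.

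The population with the highest level of each other complement gene was read over all libraries together and then, among populations with at least 10 nuclei, within each library, a check added after the pooled levels were seen. Some genes kept their leading population in every library that could be read. Cd55 was highest in SSPC-like nuclei, at 410 CPM pooled, in 4 of 4 libraries. C2, which C1s cuts, was highest in Luzp2/Cldn1 fibroblast-like nuclei, at 82.1 CPM, in 3 of 3, and Susd4, a regulator gene, in lymphatic endothelial-like nuclei, at 157 CPM, in 3 of 3. Masp1, a protease of the lectin pathway, had its peak in the fibroblast-like population, at 84.6 CPM, in 4 of 6. Csmd1 reached 7987 CPM in Schwann-like nuclei and stood first there in 2 of 3 libraries, as did Cd59a. For the others the order rested on pooling. Colec12 was highest in chondrocyte-like nuclei at 1047 CPM pooled, but 160 and 235 of the 414 chondrocyte-like nuclei came from days 5 and 7, and they stood first in 1 of 3 libraries only. C1s1 in SSPC-like nuclei led in 2 of 4 libraries, Cd46 in Luzp2/Cldn1 fibroblast-like nuclei in 1 of 3 and Csmd3 in Schwann-like nuclei in 1 of 3.

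Among the receptors, C3ar1, which binds the C3a fragment, and C5ar1, which binds C5a, were highest in macrophage-like nuclei, at 246 and 92.3 CPM pooled, in 5 of 5 and 4 of 5 libraries. Itgam was highest in neutrophil-like nuclei, at 230 CPM, in 4 of 5 libraries. Itgb2 and C5ar2 also led there when pooled, at 144 and 69.2 CPM, but in 2 of 5 libraries each. Cd93 was highest in endothelial-like nuclei, at 166 CPM, in 4 of 6 libraries and Clu, at 112 CPM, in 4 of 6. Cr1l, at 172 CPM there, led in 1 of 6, and Cfp, the gene of properdin, stood at 118 CPM pooled in monocyte/antigen-presenting-like nuclei but led in 0 of 5. In uninjured adipocyte-like nuclei, Cfd, the gene of factor D or adipsin, gave 265 and 1142 CPM, a value picked after it was seen.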

How the data were processed

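Nuclei of 6 libraries were sequenced with the 10x Genomics 3′ v3.1 chemistry. The authors mapped the reads to mm10, introns and exons included, with Cell Ranger (6.0.0 or 7.1.0 by library, per the file headers) and deposited raw UMI count matrices with 1 matrix per library. The uninjured library 1, day 5 and day 7 matrices came from version 6.0.0. Gene positions are from GENCODE M21.

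Following the study's limits, 8073 nuclei were kept that held 200 to 5000 genes and less than 2% mitochondrial and 1.5% ribosomal UMIs, myogenic nuclei were removed, and 6278 nuclei with 23139580 UMIs were clustered after Seurat 5.3.0 integration (20 components, resolution 1.3) without complement genes. A cluster was named from at least 3 detected markers. 22 of 23 clusters were named. Scrublet, run through scanpy 1.11.5, marked under 0.5% of nuclei in 3 libraries and was not relied on, so doublets were kept.

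UMIs were summed per library and population. Days 0 and 3, with 2 libraries each, were compared with edgeR 4.0.16 (filterByExpr, TMM, glmQLFit, glmQLFTest, Benjamini-Hochberg over all genes tested, threshold 0.05) and, as an alternative, DESeq2 1.42.0. The sources call the libraries of a group duplicates, so p-values measure the spread between these libraries, which may be technical. The pericyte/SMC comparison planned was not fitted, since day 3 libraries held 4 and 9 such nuclei, under a minimum of 10 that was set for that comparison alone. The macrophage comparison had no such minimum and was fitted although uninjured library 1 held 8 nuclei. In simulated data with 200 genes changed, the stromal comparison recovered 90.2% of 8-fold and 36.2% of 4-fold changes and the endothelial one 90.8% and 67.1%. Only changed genes left after the filter on low counts were scored, 92 and 94 in stroma and 98 and 79 in endothelium. A common spread was simulated for all genes, so these shares may be too high.

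The genes and lists were chosen with earlier results of these data known. Named beside the 7 genes were other complement genes that passed a test or reached 50 CPM in a population of at least 50 nuclei, and the 3 genes with the highest correlation to each. One gene of the list is counted but not reported here by name. Samples were grouped by their titles, and replicates were numbered in accession order. Other alternatives were RLE factors, no filter on low counts, each library left out in turn, doublets removed, no integration, resolution 0.8, complement genes kept in clustering, looser nucleus limits of 5% mitochondrial UMIs, and other borders of the stromal and macrophage populations.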

Additional observations from a re-analysis of the deposited data

Results flagged for a closer look

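The mean C3 level at day 3 moved in opposite directions in stromal and macrophage-like nuclei. Day 3 minus uninjured was -94.69 CPM in stroma and 9.401 CPM in macrophage-like nuclei, and the difference between the populations was not tested. The uninjured macrophage value rests on 1 UMI in library 2 and none in library 1, where 3 UMIs would be 681 CPM.

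C4a gave a signal outside the comparisons, which left it out because it was listed for 3 of the 6 libraries only. It gave 12 UMIs at day 5, beside 78 of C4b, and 1 UMI each in day 3 library 1 and at day 7, beside 6 and 30 of C4b.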

How the results depend on the processing

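No paired analysis was possible because the labels give the libraries no replicate numbers. In stroma, Cd55 and Csmd1 kept their call under all 14 alternatives, with adjusted p values from 2.02e-10 to 0.00366 and from 4.71e-15 to 0.0121 in edgeR's quasi-likelihood test or DESeq2, whereas C1s1 passed under 10 of 14, C1ra under 7 of 14 and Itgam under 10 of 12 that could be fitted. The causes of the changes below were not tested. Leaving out 1 library moved the number of genes called to 367 to 989 in stroma (reported 864, lowest without uninjured library 2), 0 to 46 in macrophages (reported 19, 0 without library 2 of either group, 3 without day 3 library 1, highest without uninjured library 1) and 0 to 462 in endothelium (reported 269, 0 without day 3 library 1, 24 without day 3 library 2, highest without uninjured library 2). It moved the other complement genes called to 2 to 7 lower (reported 5) and 0 to 2 higher (reported 1) in stroma, and 0 to 2 in endothelium (reported 0). Without integration, the calls numbered 481 in stroma and 12 in macrophages, with 3 other complement genes lower and 0 higher in stroma and 1 complement gene called in endothelium. DESeq2 called 7 genes in macrophages and 2 other complement genes lower in stroma. With no filter, 691 genes were called in endothelium, 2 of them complement genes, and 3 other complement genes were higher in stroma. With complement genes kept in clustering, 45 genes were called in macrophages, 2 other complement genes were higher in stroma and 1 complement gene was called in endothelium, and at resolution 0.8 these were 32, 2 and 1. With tendon-like and Luzp2/Cldn1 fibroblast-like clusters added, 2 were higher in stroma. No complement gene was called in macrophages under any alternative, where all but the one without uninjured library 1 include its 6 to 15 nuclei. Directions that turned were macrophage C1qb, at -0.18 without uninjured library 1, -0.27 without day 3 library 2 and -0.04 without integration, which ran up to 11.01 without uninjured library 2, C1qa, at 0.15 with DESeq2, 10.54 without uninjured library 2 and 0.89 without day 3 library 1, C1qc, at 9.97 and 0.17 without those libraries, and endothelial Serping1, at 0.02 without day 3 library 2. The values of 11.01, 10.54 and 9.97 set day 3 against the 0 UMIs of uninjured library 1. The lowest values with a library left out were -2.28 for C1qa and -2.84 for C1qc, without day 3 library 2, and -2.29 for endothelial Serping1, without day 3 library 1. Library 2 of both groups held most UMIs, and days 5 and 7 had 1 library each. The pericyte/SMC comparison was not run.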
